A study of Homo sapiens with 6 samples.

Results

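The genes described here encode the enzymes that start and first extend mucin-type O-glycans, sugar chains built on serine or threonine of proteins in the Golgi. Of the 27605 genes in the expression table, 10 were selected by gene name: 8 polypeptide N-acetylgalactosaminyltransferases (GALNT1, GALNT2, GALNT3, GALNT6, GALNT7, GALNT10, GALNT11 and GALNT12), the core 1 galactosyltransferase C1GALT1 and its chaperone C1GALT1C1. GALNT2 was chosen because it was higher in the knockdown in these same libraries, so its difference is given as a description without a test. The other 9 genes were chosen for their place in the pathway.

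RNA was sequenced from cells labelled HepG2, a human hepatocellular carcinoma line. The control group (shNC, genotype given as WT, n = 3 libraries) and the group with ARHGEF2 knocked down (shARHGEF2, n = 3 libraries) were both grown in DMEM with fetal bovine serum. The knockdown was made by lentivirus, and the study's methods describe short hairpin RNA against ARHGEF2, a guanine nucleotide exchange factor. The labels do not say how many hairpins were used, whether the libraries came from separate cultures, or what the control lentivirus held. The p-values therefore measure only the spread between these libraries, which may be technical.

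The values are FPKM, that is, fragments scaled by transcript length and by library depth, so levels can be compared between genes. Read counts are not part of the table, and the depth of each library is unknown, since the spacing of low values did not give whole fragments. At most 36.98% of them lay within 0.1 of a whole fragment at the best-fitting depth. A depth fixed beforehand would give 20% by chance, and a best-fitting one can give more. Between 9882 and 10587 genes reached 1 FPKM in each library. ARHGEF2 had 13.8 ± 0.700 FPKM in shNC and 4.36 ± 0.417 FPKM in shARHGEF2 libraries (SD, n = 3 each), and its log2 fold change was -1.47 (SE 0.11, adjusted p = 0.00244 in limma). The label of the cell line did not match its markers well. Of 14 hepatocyte markers searched by name, 7 were found and the other 7 were not. Every gene in the table had a value above 0 in at least 1 library, and why the 7 were absent was not tested. Of the 7 found, only VTN was above 1 FPKM, at 5.51 to 5.55 FPKM in shNC and 6.26 to 6.60 FPKM in shARHGEF2 libraries. RBP4 reached at most 0.907 FPKM, while APOA1, APOA2, HNF4A, AFP and SERPINA1 did not exceed 0.248 FPKM in any library. The epithelial keratins KRT7, KRT8, KRT18 and KRT19 were at 60.4 FPKM or more in every library, but EPCAM and CDH1 did not exceed 0.0547 FPKM. Among markers of other cell types, the 6 fibroblast genes summed to between 39.8 and 52.6 FPKM in shNC and between 38.7 and 45.6 FPKM in shARHGEF2 libraries, mostly from LUM. Of these, COL1A1 did not overlap between the groups, with 6.37 ± 0.390 FPKM in shNC and 8.66 ± 0.816 FPKM in shARHGEF2 libraries (SD, n = 3 each). It was 1 of 5 fibroblast genes tested (mean of at least 0.5 FPKM), where 20.5% of all genes tested did not overlap. LUM (log2 fold change -0.26) and DCN (-0.23) went the other way, with overlap. The 4 endothelial genes found summed to at most 0.904 FPKM, and the 4 leukocyte genes found to at most 0.284 FPKM. Endothelial sums were higher in shARHGEF2 (0.801 to 0.904 FPKM) than in shNC libraries (0.591 to 0.670 FPKM), nearly all of it PECAM1. PECAM1 was the only endothelial gene tested (log2 fold change 0.19, adjusted p = 0.438 in limma). It was higher without overlap, as 11.3% of all genes tested were. TEK, CDH5 and VWF had lower means in shARHGEF2 libraries, at 0.0263 FPKM or less in either group. The part of these markers in the results below was not tested. In bulk RNA, fewer cells of a type and less RNA per cell cannot be told apart.

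In mucin-type O-glycosylation, GALNT enzymes transfer N-acetylgalactosamine from UDP-GalNAc to serine or threonine. Many GALNT enzymes act on bare protein, while some, GALNT7 and GALNT10 among them, prefer peptides that already carry this sugar. C1GALT1 then adds galactose to form the core 1 structure, and C1GALT1C1 (also called COSMC) is the chaperone without which C1GALT1 does not fold. In liver, GALNT2 is known for its link to plasma lipids through O-glycosylation of lipoprotein regulators.

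Start-site sequences are shown for GALNT2, the gene chosen for its difference between the groups, for GALNT3, a low member whose groups did not overlap, and for C1GALT1C1, the second most abundant member. Windows of 250 bases before to 50 bases after the start were taken from RefSeq (GRCh38.p14). Of the 10 genes, 9 matched by symbol and GALNT6 did not. The windows are chr1:230066988-230067287 (plus strand), chr2:165794198-165794497 (minus strand) and chrX:120630005-120630304 (minus strand), each 5′ to 3′ with GC boxes (GGGCGG on either strand) in capitals.
GALNT2: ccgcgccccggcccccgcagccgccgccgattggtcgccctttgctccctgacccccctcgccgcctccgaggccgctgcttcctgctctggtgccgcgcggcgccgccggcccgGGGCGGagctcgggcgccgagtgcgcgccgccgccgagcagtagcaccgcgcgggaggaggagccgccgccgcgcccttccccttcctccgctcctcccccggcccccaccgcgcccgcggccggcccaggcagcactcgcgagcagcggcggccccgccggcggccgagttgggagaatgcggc
GALNT3: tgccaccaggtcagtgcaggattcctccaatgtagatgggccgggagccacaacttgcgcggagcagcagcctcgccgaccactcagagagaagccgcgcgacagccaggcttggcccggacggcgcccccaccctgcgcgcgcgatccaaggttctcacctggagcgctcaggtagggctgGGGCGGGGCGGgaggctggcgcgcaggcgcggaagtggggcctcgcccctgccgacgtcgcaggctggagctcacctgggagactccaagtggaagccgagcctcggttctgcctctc
C1GALT1C1: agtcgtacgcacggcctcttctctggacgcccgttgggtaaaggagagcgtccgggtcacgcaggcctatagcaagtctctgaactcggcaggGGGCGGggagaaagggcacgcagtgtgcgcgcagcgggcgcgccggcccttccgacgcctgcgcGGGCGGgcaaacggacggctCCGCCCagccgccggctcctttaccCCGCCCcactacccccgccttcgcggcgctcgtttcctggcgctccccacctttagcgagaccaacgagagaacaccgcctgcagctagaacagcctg
The GALNT2 window held 82.0% G and C, more than 98.7% of the 35116 windows in the table, whose median was 58.7%. It held 1 GC box and 1 CCAAT box (CCAAT on either strand). The GALNT3 window held 2 overlapping GC boxes and 1 CCAAT box, and the C1GALT1C1 window held 4 GC boxes. A GC box was present in 9 of the 11 windows of the members matched, where 45% of all windows held one. The windows with one held 64.3% to 86.0% G and C, above the median of all windows. Those without one, of GALNT1 and GALNT11, held 51.7% and 51.3%. Windows of like G and C content were not compared. Counted by gene, 8 of the 9 members matched had one in at least 1 window, and the share by gene over all genes was not computed. A CCAAT box was present in 34.6% of all windows. The AP-1 letters TGANTCA, found in 7.71% of all windows, were in none of the members' windows. The hypoxia response core ACGTG (21.4% of all windows) was found in C1GALT1 only, and the TEAD letters GGAATG (14.0%) in GALNT11 only, with each motif searched on both strands. GALNT1 has several listed starts and was searched in 3 windows, some of which overlap. These are matches of letters and not measured binding sites.

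GALNT2 was by far the most abundant member and was higher in every shARHGEF2 library. GALNT2 (ENSG00000143641), a broadly acting enzyme that starts O-glycans, had 59.3, 64.3 and 60.1 FPKM in shNC replicates 1 to 3 and 96.1, 98.6 and 98.1 FPKM in shARHGEF2 replicates 1 to 3. The groups did not overlap, and the gap between them was wider than the range within either group. The means were 61.2 ± 2.72 and 97.6 ± 1.32 FPKM (SD, n = 3 each), a ratio of 1.59, with a log2 fold change of 0.66 on the log2(FPKM + 1) scale used throughout. The mean level of GALNT2 was at the 95.5th percentile of the 12291 genes tested, those whose mean over the 6 libraries reached 0.5 FPKM. Its pooled SD within groups was 0.0461 on the log2(FPKM + 1) scale, where the median gene tested had 0.156. The median gene was far lower in level, and genes of a level like that of GALNT2 were not compared. The log2 fold change of GALNT2 lay between 0.64 and 0.70 in 14 alternative fits, which included leaving out each library in turn. Fits that changed only the filter, the variances or the block could not change this value (0.6645 in each). As GALNT2 was chosen on this difference, the range is a description and not support.

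**Figure D1:**
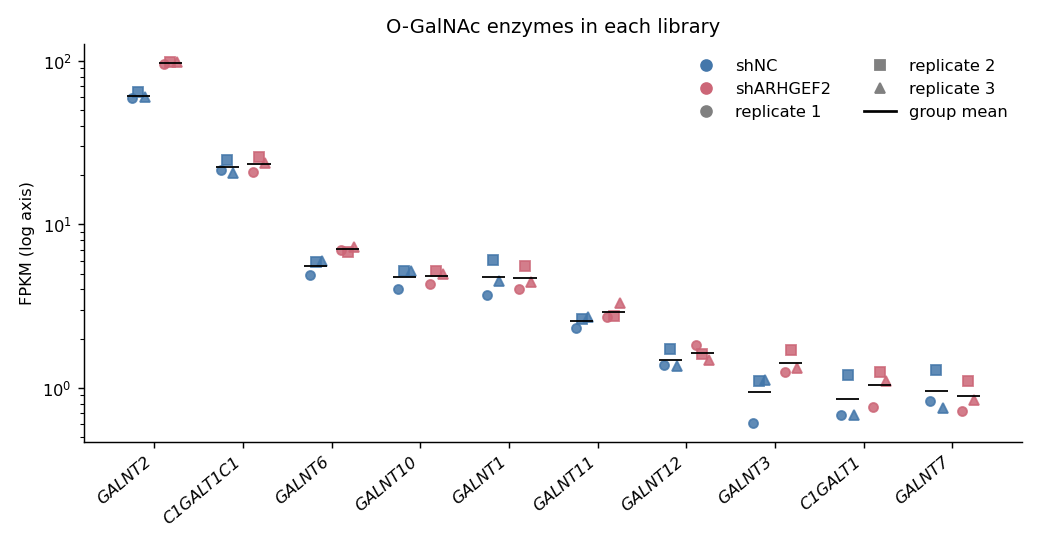
FPKM (log axis) of the 10 genes in each library, ordered by mean level, with shNC in blue, shARHGEF2 in red, replicate numbers as marker shapes and group means as bars. GALNT2 lies between 59.3 and 64.3 FPKM in shNC and between 96.1 and 98.6 FPKM in shARHGEF2 libraries, and the other genes lie at or below 25.8 FPKM.

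None of the other 9 genes passed the threshold of limma (adjusted p under 0.05 over all 12291 genes tested), which 0.277% of all genes passed (0.195% higher and 0.0814% lower). At an unadjusted p under 0.05 there was 1 of the 9, GALNT6, against 13.7% of all genes. All 10 genes reached the level needed for testing. The groups did not overlap in 2 of the 9, GALNT6 and GALNT3, both higher in shARHGEF2 libraries, where the groups did not overlap in 20.5% of all genes tested and 11.3% were higher without overlap. The median log2 fold change of the 9 was 0.08, where that of all genes tested was -0.002, and 7 of the 9 were above 0, where 49.6% of all genes were.

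GALNT6 and GALNT3 are close relatives within the family, and GALNT3 is known for protecting the hormone FGF23 from cleavage. GALNT6 had 4.92, 5.85 and 5.96 FPKM in shNC and 6.99, 6.80 and 7.31 FPKM in shARHGEF2 replicates 1 to 3. Every shARHGEF2 library lay above every shNC library, with a log2 fold change of 0.29 (SE 0.11, adjusted p = 0.307 in limma). GALNT3 had 0.604, 1.10 and 1.11 FPKM in shNC and 1.26, 1.71 and 1.31 FPKM in shARHGEF2 replicates 1 to 3. Here, too, the groups did not overlap, but shNC replicate 1 lay far below the other shNC libraries. The log2 fold change of GALNT3 was 0.33 (SE 0.15, adjusted p = 0.366 in limma), and with a pseudocount of 0.1 in place of 1 it was 0.59. Without shNC replicate 1 it was 0.20.

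The other 5 GALNT members overlapped between the groups. GALNT1, a widely expressed enzyme of the same first step as GALNT2, had 3.68, 6.04 and 4.51 FPKM in shNC and 4.0, 5.59 and 4.46 FPKM in shARHGEF2 replicates 1 to 3. Its log2 fold change was close to 0, with a 95% interval from -0.40 to 0.39. GALNT10, which prefers peptides that already carry the sugar, had 4.02, 5.19 and 5.16 FPKM in shNC and 4.33, 5.16 and 4.96 FPKM in shARHGEF2 replicates 1 to 3, with an interval from -0.29 to 0.30. In both genes the libraries of a group differed more from each other than the group means did. GALNT7, the other enzyme with this preference, had 0.831, 1.29 and 0.748 FPKM in shNC and 0.723, 1.10 and 0.844 FPKM in shARHGEF2 replicates 1 to 3 (interval -0.37 to 0.27). GALNT11, known for O-glycosylation of the Notch1 receptor, had 2.33, 2.64 and 2.70 FPKM in shNC and 2.70, 2.76 and 3.29 FPKM in shARHGEF2 replicates 1 to 3. The lowest shARHGEF2 library of GALNT11 lay just below the highest shNC library, and the log2 fold change was 0.14 (SE 0.12, adjusted p = 0.674 in limma). GALNT12, known for expression in the digestive tract, had 1.37, 1.73 and 1.36 FPKM in shNC and 1.84, 1.60 and 1.47 FPKM in shARHGEF2 replicates 1 to 3 (interval -0.19 to 0.36). The intervals of these 5 genes all hold 0.

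C1GALT1, the enzyme of the next step, and its chaperone stood at very different levels. C1GALT1C1 had 21.5, 24.8 and 20.7 FPKM in shNC and 20.8, 25.8 and 23.9 FPKM in shARHGEF2 replicates 1 to 3, with a log2 fold change of 0.07 (95% interval -0.19 to 0.33, adjusted p = 0.852 in limma). C1GALT1 had 0.678, 1.20 and 0.679 FPKM in shNC and 0.760, 1.24 and 1.10 FPKM in shARHGEF2 replicates 1 to 3, with a log2 fold change of 0.14 (95% interval -0.20 to 0.48, adjusted p = 0.751 in limma). The groups overlapped in both genes. Chaperone mRNA exceeded enzyme mRNA by 20.7 to 31.7 times in shNC and by 20.7 to 27.3 times in shARHGEF2 libraries.

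**Figure D2:**
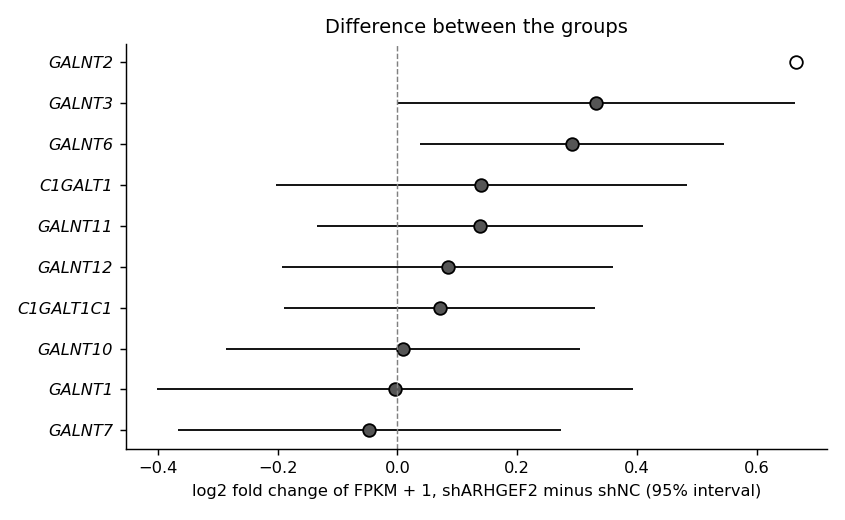
Log2 fold change of FPKM + 1 (shARHGEF2 minus shNC) of the 10 genes, with 95% intervals from limma for the 9 genes other than GALNT2. GALNT2 (open circle, no interval because it was chosen on this difference) lies at 0.66, and GALNT6, at 0.29, is the only other gene whose interval lies above 0, before adjustment over all genes.

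The order of the levels was alike in both groups from GALNT2 to C1GALT1C1, which did not overlap with each other or with any gene below them. In shNC libraries GALNT6, GALNT10 and GALNT1 overlapped, whereas in shARHGEF2 libraries GALNT6 (6.80 to 7.31 FPKM) lay above GALNT10 (4.33 to 5.16 FPKM) and GALNT1 (4.0 to 5.59 FPKM). GALNT11 came next, without overlap with its neighbours in either group. GALNT12, GALNT3, C1GALT1 and GALNT7 formed the low end, at 1.84 FPKM or less in every library, and C1GALT1 and GALNT7 overlapped in both groups. The spread between libraries differed along the list. The 6 members whose transcripts average 39.1% to 43.4% G and C had coefficients of variation of 9.71% to 35.2% in shNC libraries, and the 4 with 48.3% to 58.0% had 4.43% to 13.9%. The 6 include GALNT12, GALNT3, C1GALT1 and GALNT7 of the low end, and the 9.71% belongs to C1GALT1C1, the most abundant of the 6. Level and G and C content were not separated here. Replicate 2 was the highest library of its group for 7 of the 10 genes in shNC and for 7 of the 10 in shARHGEF2. The share over all genes was not counted. Replicate 2 also had the most genes at 1 FPKM of its group (10587 in shNC and 10379 in shARHGEF2). Its median-ratio scaling factor over genes above 0 in all libraries was the largest of its group too (1.08 and 1.05). Across all genes tested, the log2 fold change went with G and C content with a Spearman correlation of 0.14, a description across genes that share the same 6 libraries. With a trend on G and C content removed from each library, GALNT2 had a log2 fold change of 0.65.

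Counted over the whole family, GALNT2 made up most of the GALNT mRNA. The table names 17 GALNT genes, the 8 above and 9 others, of which only GALNT18 reached the filter (log2 fold change -0.10, adjusted p = 0.733 in limma). GALNT4, which shares its sequence with the readthrough gene POC1B-GALNT4, had 0.304 ± 0.115 FPKM in shNC and 0.263 ± 0.107 FPKM in shARHGEF2 libraries, and GALNT16 had 0.0916 ± 0.0529 and 0.0930 ± 0.0103 FPKM (SD, n = 3 each). The 9 others summed to at most 1.25 FPKM in any library. Among them only GALNT13 did not overlap between the groups. It had 0.0584 ± 0.0182 FPKM in shNC and 0.102 ± 0.00657 FPKM in shARHGEF2 libraries (SD, n = 3 each) and was not tested. Together the 17 genes had 78.0, 89.4 and 82.9 FPKM in shNC and 119, 124.2 and 122.9 FPKM in shARHGEF2 replicates 1 to 3. GALNT2 made up 73.5 ± 2.22% of this sum in shNC and 80.0 ± 0.713% in shARHGEF2 libraries (SD, n = 3 each). The 16 genes other than GALNT2 summed to 22.2 ± 3.24 FPKM in shNC and 24.4 ± 1.4 FPKM in shARHGEF2 libraries (SD, n = 3 each), with overlap. The family sum was thus higher in every shARHGEF2 library, and GALNT2 carried most of the difference.

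**Figure D3:**
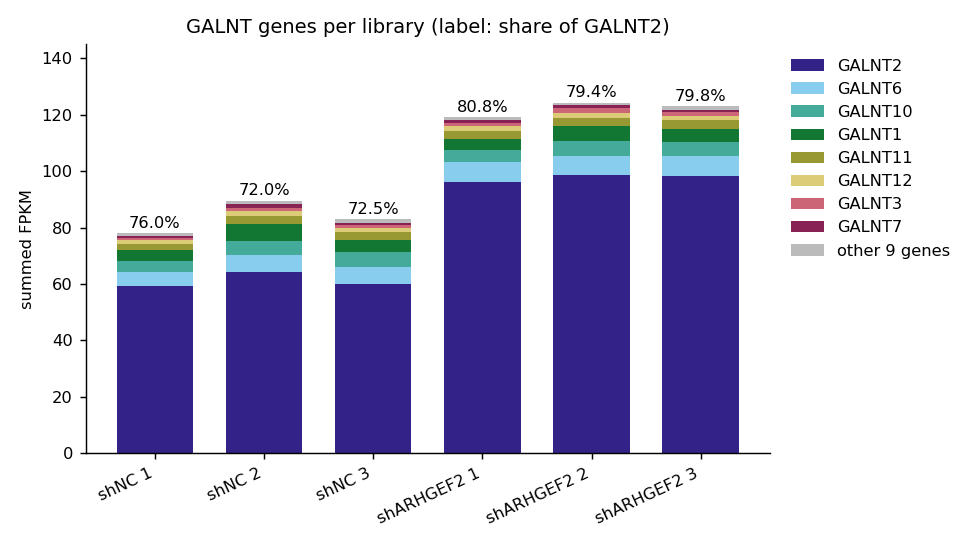
Summed FPKM of the 17 GALNT genes in each library, stacked by gene, with the share of GALNT2 above each bar. The bars reach 78.0 to 89.4 FPKM in shNC and 119 to 124.2 FPKM in shARHGEF2 libraries, and the part above GALNT2 spans 18.7 to 25.6 FPKM over all 6.

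The rest of the pathway was examined through lists of the genes around these steps. Of 95 listed genes outside the 10, 83 were found by name and 56 were tested, and 0 passed the adjusted threshold of limma. At an unadjusted p under 0.05 there were 10 higher genes and 0 lower ones, where 8.1% of all genes tested were higher and 5.55% lower. Their median log2 fold change was 0.07. Of the 26 genes annotated in the table to mucin type O-glycan biosynthesis of KEGG, 14 were tested. Apart from members, these were GALNT18, B4GALT5, ST3GAL1 and ST3GAL2, and none of the 4 passed the adjusted threshold.

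Sialyltransferases cap O-glycans with sialic acid. ST3GAL1, which caps core 1, had 5.00, 5.76 and 6.27 FPKM in shNC and 6.95, 7.90 and 7.92 FPKM in shARHGEF2 replicates 1 to 3, without overlap (log2 fold change 0.37, SE 0.12, adjusted p = 0.232 in limma). ST3GAL4, which acts mainly on other galactose ends, had 29.1, 27.9 and 33.6 FPKM in shNC and 40.7, 39.0 and 37.4 FPKM in shARHGEF2 replicates 1 to 3 (log2 fold change 0.36, SE 0.10, adjusted p = 0.172 in limma). These were the only 2 of the 5 tested sialyltransferases whose groups did not overlap, where 20.5% of all genes tested did not and 11.3% were higher. ST6GALNAC4, the most abundant of them, had 52.4 ± 6.45 and 49.8 ± 3.41 FPKM (SD, n = 3 each), and its groups overlapped.

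The branching and extension enzymes were uneven in level. GCNT1, GCNT3 and GCNT4, which make the core 2 branch, did not exceed 0.241 FPKM in any library and were not tested. B4GALT1, a galactosyltransferase shared with N-glycans, had 125.8 ± 9.15 FPKM in shNC and 146.1 ± 3.78 FPKM in shARHGEF2 libraries (SD, n = 3 each), without overlap (log2 fold change 0.22, SE 0.09, adjusted p = 0.320 in limma). B4GALT5, which makes lactosylceramide, had 29.5 ± 4.31 and 28.7 ± 2.49 FPKM, and B3GNT3, which extends core 1, had 4.86 ± 0.141 and 6.27 ± 1.56 FPKM (SD, n = 3 each), both with overlap.

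Of the 14 tested genes for making and carrying the sugar donors, 9 were above 0 and 5 below. GFPT2, an enzyme at the entry of the hexosamine pathway, had 6.72 ± 1.64 FPKM in shNC and 9.42 ± 0.727 FPKM in shARHGEF2 libraries (SD, n = 3 each), with the largest log2 fold change of this list (0.45, SE 0.15, adjusted p = 0.255 in limma). Its groups met at the edge, where shNC replicate 3 (8.607 FPKM) lay just above shARHGEF2 replicate 1 (8.605 FPKM). CMAS and NANS, of the sialic acid route, had 19.0 ± 2.16 and 16.3 ± 0.739 FPKM in shNC and 20.4 ± 2.91 and 19.2 ± 0.349 FPKM in shARHGEF2 libraries (SD, n = 3 each).

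Proteins that carry O-glycans were examined through a list of mucins and other glycoproteins. PODXL had 54.2 ± 7.12 and 55.9 ± 3.41 FPKM, SDC1 had 48.1 ± 1.94 and 52.4 ± 2.88 FPKM, and CD24 had 43.9 ± 1.46 and 39.5 ± 9.48 FPKM in shNC and shARHGEF2 libraries (SD, n = 3 each). MUC1, a membrane mucin, had 4.98 to 6.03 FPKM in shNC and 5.05 to 7.40 FPKM in shARHGEF2 libraries. The gel-forming mucins MUC2, MUC5AC, MUC5B and MUC6 did not exceed 0.0696 FPKM in any library. The groups overlapped in all 6 tested genes of this list.

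Other kinds of protein glycosylation gave similar counts. Of 15 tested genes for O-glycans that start with another sugar, 2 had an unadjusted p under 0.05, both higher, a count near the 13.7% of all genes tested. XYLT2, which starts glycosaminoglycan chains, had 15.8, 15.3 and 17.9 FPKM in shNC and 22.1, 22.2 and 21.4 FPKM in shARHGEF2 replicates 1 to 3, without overlap (log2 fold change 0.40, SE 0.10, adjusted p = 0.136 in limma). POMGNT1, of the O-mannose route, had 25.9 ± 4.28 and 30.3 ± 4.29 FPKM, and POFUT1, which adds fucose to Notch, had 19.1 ± 1.55 and 18.2 ± 0.846 FPKM (SD, n = 3 each). Of 11 tested subunits of the oligosaccharyltransferase, the complex that starts N-glycans, 2 had an unadjusted p under 0.05, RPN1 and MAGT1, both higher, where 13.7% of all genes tested had one and 8.1% were higher. The groups of MAGT1 overlapped, and the subunits without overlap were RPN1, higher, and TMEM258 and KRTCAP2, lower in shARHGEF2 libraries, where 20.5% of all genes did not overlap. The 3 most abundant subunits were OST4, at 167.9 ± 15.0 and 148.1 ± 4.45 FPKM, DAD1, at 110.9 ± 14.4 and 112.4 ± 7.36 FPKM, and DDOST, at 94.3 ± 9.39 and 100.6 ± 10.8 FPKM in shNC and shARHGEF2 libraries (SD, n = 3 each).

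**Figure D4:**
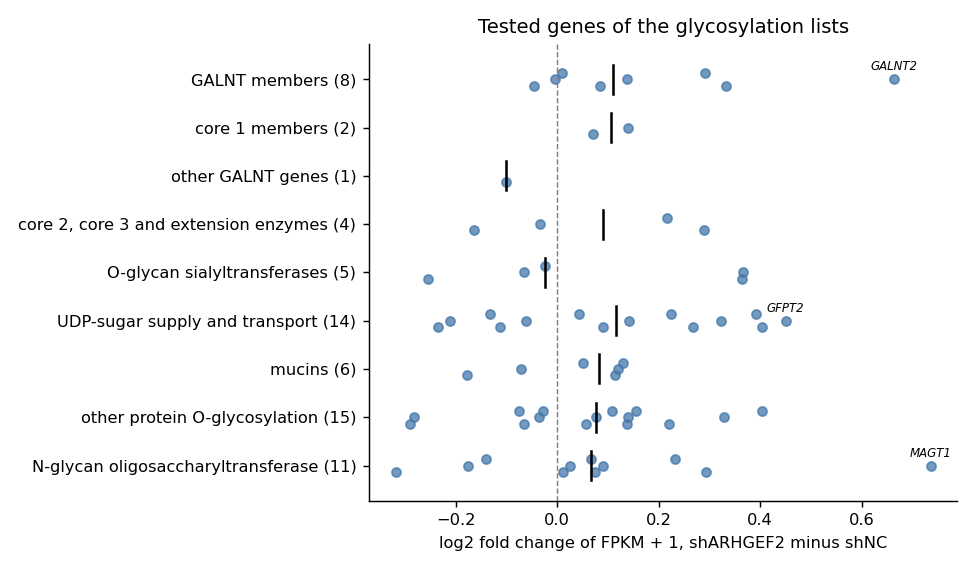
Log2 fold change of FPKM + 1 (shARHGEF2 minus shNC) of each tested gene, by list, with the number tested in brackets and the list median as a black bar. Medians lie between -0.10 and 0.12, and GALNT2, GFPT2 and MAGT1 are named as the genes beyond 0.44.

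Genes next to GALNT2 on chromosome 1 were compared with it. In the GENCODE 29 order, the 5 tested genes before GALNT2 were CCSAP, NUP133, ABCB10, TAF5L and URB2, and the 5 after it were PGBD5, COG2, C1orf198, TTC13 and ARV1. None of the 10 passed the adjusted threshold, as 0.277% of all genes did, and 2 had an unadjusted p under 0.05, as 13.7% of all genes did. The log2 fold change was above 0 in 5 and below 0 in 5. Their log2 fold changes lay between -0.39 (ABCB10, a mitochondrial transporter) and 0.19 (TTC13). The groups did not overlap in 3 of the 10, ABCB10, URB2 and COG2, each lower in shARHGEF2 libraries, where 9.17% of all genes tested were lower without overlap. COG2, a subunit of the Golgi tethering complex that keeps glycosylation enzymes in place, had 1.46, 2.35 and 1.46 FPKM in shNC and 1.34, 1.23 and 1.27 FPKM in shARHGEF2 replicates 1 to 3 with shNC replicate 2 well above the other shNC libraries (log2 fold change -0.26, SE 0.15, adjusted p = 0.477 in limma). The 2 antisense genes that overlap GALNT2, both named AL136988, had means of at most 0.0204 FPKM in either group and were not tested.

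**Figure D5:**
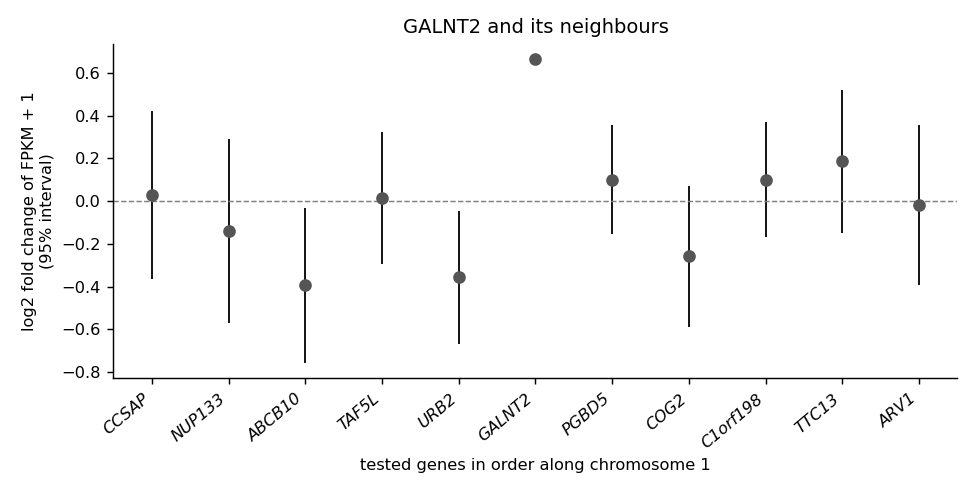
Log2 fold change of FPKM + 1 (shARHGEF2 minus shNC) of GALNT2 and the 5 tested genes on each side, in chromosome order, with 95% intervals from limma for all but GALNT2. The neighbours lie between -0.39 and 0.19, and GALNT2 lies at 0.66.

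The genes whose pattern was most like that of GALNT2 over the 6 libraries were FZD5 (Pearson's r = 0.997), PTGS1 (0.993), GANAB (0.993), HSPB8 (0.993) and S100A9 (0.989), among 10210 other genes whose mean reached 1 FPKM. The 6 libraries are 2 groups, so this measure picks genes that differ between them with little spread, and it is given as a description. GANAB, the catalytic subunit of glucosidase II that trims N-glycans in the endoplasmic reticulum, was the closest of them to GALNT2 in level. It had 92.0, 96.0 and 95.2 FPKM in shNC and 137.3, 150.4 and 146.6 FPKM in shARHGEF2 replicates 1 to 3, a log2 fold change of 0.61, and PTGS1, which makes prostaglandin precursors, had 0.62 at 1.23 ± 0.103 and 2.43 ± 0.143 FPKM (SD, n = 3 each). Among the members themselves, r with GALNT2 was 0.90 for GALNT6, 0.775 for GALNT3, 0.67 for GALNT11 and 0.09 for GALNT1.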

How the data were processed

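The authors deposited 1 table of FPKM values per gene and library. The submitters' processing notes name cutadapt 1.9, HISAT2 2.0.4, UMI-tools, StringTie 1.3.4d, DESeq2, edgeR and the build hg19, without roles. Library preparation used poly(A) selection, dUTP strand marking and molecular identifiers, and whether counting used strand is not given in the sources used here. The authors' own comparison columns (fold change and significance) were not used. Of the 112516 transcripts listed, 94.7% were found in GENCODE 29 (GRCh38), which gave G and C content and gene order. As its build differs from that named in the notes, its coordinates were used only for gene order and overlap and are not printed.

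Groups were compared with limma 3.58.1 in R 4.3.3 (trended, robust variances, statmod 1.5.0) on log2(FPKM + 1) for genes whose mean over the 6 libraries reached 0.5 FPKM, with Benjamini-Hochberg adjustment over all 12291 genes tested. The pseudocount of 1 makes the fold changes of low genes smaller. The fit was tested on simulated data. No count test was used, since the values are FPKM. Same-numbered libraries had residual correlations of 0.184, 0.159 and -0.105, where differently numbered ones had -0.221 to 0.0683. These values do not settle whether the numbers pair the libraries, and the fit used no block. The members and the lists were chosen with earlier results of these data known. Named genes are all members, the 3 most abundant genes of each list and any that passed the threshold, the 5 tested genes on each side of GALNT2, and the 5 most like it. An item that this rule names is not reported here. The mucins below 10 FPKM, GCNT1, GCNT3, GCNT4, GFPT2, RPN1 and MAGT1 were named after their values were seen. Python 3.11.15, pandas 2.3.3 and matplotlib 3.10.9 were used for tables and plots.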

Additional observations from a re-analysis of the deposited data

How the results depend on the processing

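Over all genes tested, 34 were called in limma (24 higher and 10 lower). The count was 54 (39 and 15) with at least 1 FPKM in 3 or more libraries, 19 (12 and 7) with quantile normalization, 7 (4 and 3) with median-ratio scaling, 7 (4 and 3) without trended or robust variances, and 1 (lower) with no filter beyond a value above 0, where 27605 genes were tested. With the replicate block it was 0, with 1976 genes at an unadjusted p under 0.05. Whether the replicate numbers pair the libraries is not known. Leaving out 1 library gave 6 to 102 genes, with 102 without shNC replicate 3. The cause was not tested. A pseudocount of 0.1 and removal of the G and C content trend kept the count within 1.5 times. Of the 9 members other than GALNT2 and of the 56 list genes, 0 were called in limma in any of the 14 alternatives. The difference in the share of GALNT2 among GALNT genes lay between 5.71 and 7.76 percentage points, a description, as GALNT2 was chosen on its difference. The sign of genes near 0 turned. GALNT1 had a log2 fold change of 0.0198 with the G and C content trend removed and -0.14 to 0.15 with 1 library left out. With 1 library left out, GALNT7 lay between -0.12 and 0.0725 and GALNT10 between -0.0904 and 0.0711. GALNT7 was not tested with at least 1 FPKM in 3 or more libraries. FPKM give no exact counts, so no counting interval was computed for the members near 1 FPKM.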

Other observations

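Other enzymes that transfer N-acetylgalactosamine, to a sugar and not to serine or threonine, were looked at after the values of the GALNT genes were seen. B4GALNT1, which makes the gangliosides GM2 and GD2, had 2.85, 2.64 and 2.87 FPKM in shNC and 4.0, 3.82 and 3.75 FPKM in shARHGEF2 replicates 1 to 3, without overlap, with a log2 fold change of 0.36 (SE 0.11, adjusted p = 0.206 in limma). B4GALNT3, which adds the sugar to N-acetylglucosamine, had 0.491 ± 0.116 FPKM in shNC and 0.843 ± 0.144 FPKM in shARHGEF2 libraries (SD, n = 3 each), also without overlap (log2 fold change 0.31, SE 0.12, adjusted p = 0.302 in limma). B4GALNT4, the more abundant relative with the same activity, had 27.4 ± 2.53 and 30.6 ± 1.18 FPKM (SD, n = 3 each), and its groups overlapped. B3GALNT2, of the O-mannose route, had 1.16 ± 0.336 and 0.858 ± 0.134 FPKM (SD, n = 3 each), without overlap and lower in shARHGEF2 libraries (adjusted p = 0.554 in limma). CSGALNACT1 and CSGALNACT2, which act in chondroitin sulfate synthesis, had 1.81 ± 0.258 and 1.71 ± 0.409 FPKM in shNC and 2.07 ± 0.370 and 1.88 ± 0.341 FPKM in shARHGEF2 libraries (SD, n = 3 each), and their groups overlapped. None of these genes passed the adjusted threshold. Of all genes tested, 20.5% did not overlap between the groups, 11.3% higher and 9.17% lower in shARHGEF2 libraries. B4GALNT3 was near the filter of 0.5 FPKM, with a mean of 0.667 FPKM over the 6 libraries.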
